A study of Mus musculus with 7 samples.

Results

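Collagen genes were followed in 7 subcutaneous tumors formed by mouse pancreatic ductal adenocarcinoma (PDA) cells and profiled by bulk RNA sequencing. Members were all rows of the expression table whose symbol is Col, a type number, a and a chain number, which gave 44 of 38026 genes. The cells were line 1242, derived from a KPC mouse tumor, a model in which Cre recombinase is driven by the *Pdx1* promoter. All cells carried SpCas9 by lentivirus, with a scrambled guide in the control tumors (sgScramble, replicates 1 to 4) or a guide against the epithelial keratin gene *Krt19* in the edited tumors (sgKRT19, replicates 5, 6 and 8). Hosts of both groups were C57BL/6 mice without treatment, and tumors were taken 2 weeks after inoculation. The study bought mice at 6 weeks of age and housed them for 2 weeks. The labels do not say which guide, or whether a clone or a mixed population of edited cells, formed each tumor, and subcutaneous growth differs from the pancreas as a site. The comparison asks how tumors with edited *Krt19* differ in gene expression, here in the genes of their collagen matrix.

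Collagens are extracellular proteins in which 3 chains wind into a triple helix. Fibrillar collagens build the cable-like fibers of connective tissue, basement membrane collagens form sheets under epithelia and around vessels, and network collagens form beaded filaments or lattices. Fibril-associated collagens sit on the surface of fibrils, and transmembrane collagens are anchored in the cell membrane. A dense collagen matrix is a known trait of pancreatic cancer, where fibroblasts make most of the fibrillar chains and cancer cells can add chains of their own. In a whole tumor, fewer cells of a type and less RNA per cell cannot be told apart.

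Libraries held 40781199 to 44972100 reads. Expression is given as normalized read count, in which the reads of a gene are divided by a size factor for that library, and ± stands for the SD over the tumors of a group. *Krt19* was at 25574, 21179, 27618 and 17841 in sgScramble tumors and at 1606, 1960 and 2470 in sgKRT19 tumors (log2 fold change −3.52, by limma with SE 0.183 and adjusted p = 1.74e-05), so levels of the targeted gene followed the labels. Of 10 epithelial markers, all 10 passed the filter on low values, as the label of a carcinoma requires, and 5 rose. Other lists also moved with the groups. All 12 skeletal muscle markers rose. Their summed value was 301, 322, 2910 and 287 in sgScramble tumors 1 to 4 and 23077 to 31542 in sgKRT19 tumors. *Ckm*, *Myh1*, *Myh2*, *Myh4*, *Actn2*, *Actn3*, *Tnnt3* and *Mybpc1* were under 10 in every control but sgScramble 3. They passed the filter through the sgKRT19 tumors, so their entry into the test already required a difference. Of 10 endothelial markers 5 rose, with sums of 4746 to 6530 and 7039 to 8833. Of 17 fibroblast and pericyte markers measured, 4 rose and 1 fell, with sums of 18547 to 22747 and 20214 to 29201. Those that rose were *Acta2*, *Rgs5*, *Cspg4* and *Kcnj8*, and *Twist1* fell. The others, among them *Pdgfra*, *Pdgfrb*, *Fap*, *Pdpn*, *Dpt* and *Lrrc15*, were not called. One of 4 basal keratinocyte markers tested rose, as did 1 of 6 adipocyte markers, and of 7 Schwann cell markers 2 rose and 1 fell. Over all genes tested 34.0% were called and 17.9% were higher. The shares called among fibroblast and pericyte (29.4%), basal keratinocyte (25.0%) and adipocyte markers (16.7%) did not exceed the background. Those of epithelial (50%), endothelial (50%) and Schwann cell markers (42.9%) did. The share of muscle markers (100%) rests partly on genes whose entry required a difference, so it was not set against the background. In every tumor each list held reads, and the part of these cell types in the collagen differences was not tested.

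Most of the called collagens were lower in sgKRT19 tumors, with *Col11a1*, *Col2a1* and *Col9a3* at log2 fold changes of −3.73 to −3.04. Of the 44 collagens, 36 reached a normalized read count of 10 in 3 or more libraries and were tested. Limma called 13 of the 36 at an adjusted p under 0.05, or 36.1%, close to the 34.0% called over all 21322 genes tested. The direction was uneven, with 11 lower (30.6%, against 16.0% of all genes) and 2 higher (5.56%, against 17.9%). The median log2 fold change of the tested collagens was −0.42, against 0.0072 for all genes, and 27 of 36 estimates were below 0. The sgKRT19 libraries lay below every sgScramble library for 7 collagens (19.4%, against 19.3% of all genes) and above them for 2 (5.56%, against 21.7%). The count that fell moved with single libraries, as did that over all genes (3420 of 21322 with every library). It was 5 of 35 without sgKRT19 5 (2490 of 21048 genes) and 6 of 35 without sgKRT19 6 (2961 of 21070). Without sgKRT19 8 it was 7 of 34 (2709 of 21028) and without sgScramble 2 it was 7 of 36 (2232 of 21079). It was 8 of 34 without sgScramble 3 (3132 of 21058) and 8 of 34 without sgScramble 4 (2326 of 21043). Without sgScramble 1 it was 14 of 35 (3611 of 21164). Just 1 collagen rose without any 1 of the libraries other than sgKRT19 8, where *Col10a1* and *Col8a1* rose. *Col2a1* and *Col6a4* passed the filter only through the group in which they were high, so their entry into the test already required a difference.

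Library sgScramble 4 held the highest value of 21 of 36 collagens, or 58.3%, compared with 19.2% of all genes. The low end was held by sgKRT19 8 for 13 collagens (36.1%, against 16.0% of all genes) and by sgScramble 1 for 10 (27.8%, against 8.90%). Collagens together took 0.439%, 0.599%, 0.653% and 1.03% of reads in sgScramble tumors 1 to 4, and 0.429%, 0.496% and 0.448% in sgKRT19 tumors 5, 6 and 8. The groups overlapped in this share, because sgScramble 1 lay within the sgKRT19 range. For 26 of 36 collagens the SD of log2 values was larger within sgScramble than within sgKRT19 (72.2%, against 46.3% of all genes). Without sgScramble 4, limma called 8 collagens lower and 1 higher (2326 and 2874 of 21043 genes), and the median log2 fold change was −0.14.

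**Figure D1:**
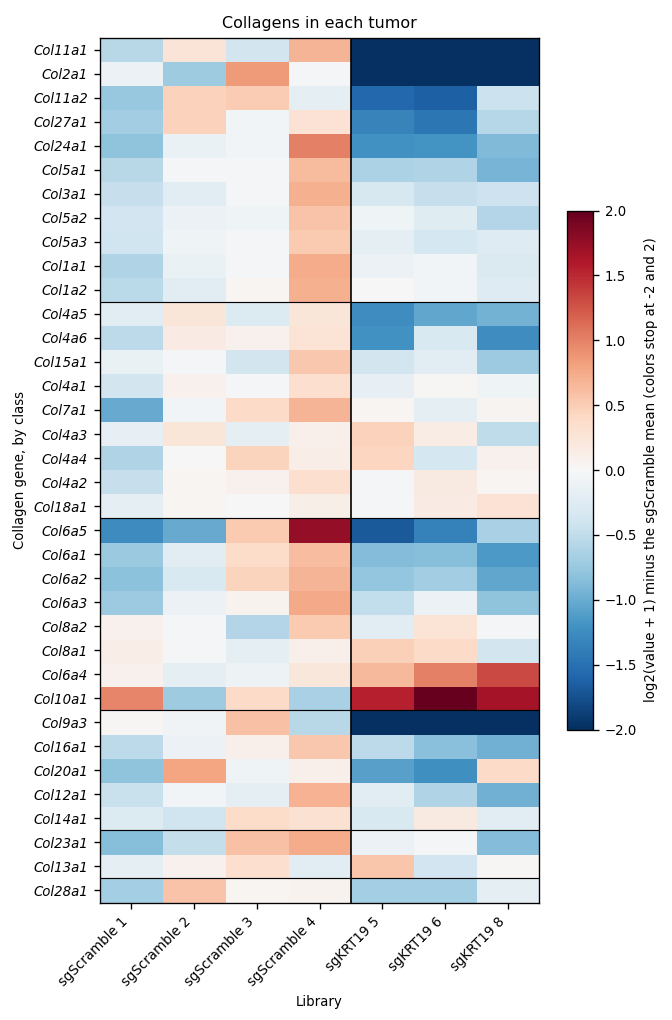
Difference of each tumor from the sgScramble mean on the log2(value + 1) scale for the 36 tested collagens (rows, grouped by class with horizontal lines), with the 4 sgScramble libraries left of the vertical line and the 3 sgKRT19 libraries right of it. Colors stop at −2 and 2. Rows of *Col11a1*, *Col2a1* and *Col9a3* are dark blue in all 3 sgKRT19 tumors, and sgScramble 4 is the reddest column, holding the highest value of 21 collagens.

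Fibrillar collagens held 6 of the 11 calls downward. All 11 genes of the class were tested, 6 fell (54.5%, against 16.0% of all genes), none was called higher by limma, edgeR or DESeq2 or had an unadjusted p under 0.05 in that direction, and the median log2 fold change was −0.73. These figures include *Col2a1*, which passed the filter only through the sgScramble tumors. With a filter of 50, which dropped *Col2a1*, 5 of 10 fell (2862 of 17160 genes) and the median was −0.56. The estimates of all 11 were below 0, although those of *Col1a1* and *Col1a2* turned to 0.093 and 0.14 without sgScramble 4. That library held the highest value of 8 of the 11, and without it the class median was −0.34 over the 10 genes then tested. The genes that fell were *Col11a1*, *Col2a1*, *Col11a2*, *Col27a1*, *Col24a1* and *Col5a1*. Those of the bulk types I and III were not called, nor were *Col5a2* and *Col5a3*. Only 2 fibrillar genes fell by limma without sgKRT19 5, sgKRT19 6 or sgScramble 3, 3 without sgScramble 2, and 4 without sgKRT19 8 or sgScramble 4. The count of all genes that fell was also smaller in each of these settings, at 2232 to 3132 against 3420 with every library.

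*Col11a1* encodes a chain of type XI collagen, which sits inside thin fibrils of cartilage and is known in many carcinomas as a marker of activated fibroblasts. Its normalized read count was 1423, 2498, 1625 and 3345 in sgScramble tumors (mean 2223 ± 882, n = 4) and 302, 168 and 76.7 in sgKRT19 tumors (mean 182 ± 113, n = 3). Every sgKRT19 tumor lay far below every sgScramble tumor. On the log2(value + 1) scale the difference was −3.73 (limma, SE 0.420, adjusted p = 0.000213), or 13.2-fold lower. Left-out libraries and other settings gave −4.19 to −3.21, and the call held in all 15 of them. *Col11a1* (ENSMUSG00000027966.20) spans chr3:114030540-114220718 on the plus strand of GRCm38. With edgeR, DESeq2, a pseudocount of 0.5 or without sgKRT19 8 the estimate of *Col2a1*, which rests on at most 1 read in each sgKRT19 library, was lower still, so the order of these falls is not fixed. The *Col11a1* promoter is shown as that of the largest fall in the limma test, the 250 bases before the RefSeq start (chr3:114030290-114030539, plus strand), with matches to GGGCGG or CCAAT, or their reverse complements CCGCCC and ATTGG, in capitals.
Col11a1: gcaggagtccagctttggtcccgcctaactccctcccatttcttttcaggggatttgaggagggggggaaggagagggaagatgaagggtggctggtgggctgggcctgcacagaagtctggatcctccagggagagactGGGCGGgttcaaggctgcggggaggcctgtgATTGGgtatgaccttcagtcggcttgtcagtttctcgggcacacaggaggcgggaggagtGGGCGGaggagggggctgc

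*Col2a1*, the main fibril chain of cartilage, was barely present. Tumors of the sgScramble group had 13.9, 8.89, 28.3 and 14.8 (mean 16.5 ± 8.30), and those of the sgKRT19 group 1.16, 0 and 1.05, which is at most 1 read each. Taking 3 reads per library as the floor of detection, a value of 3.47 in the sgKRT19 library with the highest floor, the sgKRT19 level was at least 4.76-fold lower. Limma gave an adjusted p of 0.000921 for the difference. *Col11a2*, another type XI chain, had 143, 334, 344 and 211 in sgScramble and 80.9, 78.0 and 181 in sgKRT19 tumors. sgKRT19 8 overlapped the lowest sgScramble tumor, and the log2 fold change was −1.21 (limma, SE 0.366, adjusted p = 0.0287). The call was lost without sgScramble 2, sgScramble 3, sgKRT19 5 or sgKRT19 6, with log2 fold changes of −1.06 to −1.0 and limma adjusted p of 0.0576 to 0.105. *Col27a1*, a fibrillar chain of developing cartilage, was abundant, with 5067, 11299, 7888 and 9950.4 in sgScramble and 3230.0, 3007 and 5539 in sgKRT19 tumors. It fell by 1.12 on the log2 scale (limma, SE 0.282, adjusted p = 0.0135), again with sgKRT19 8 above sgScramble 1. Without sgKRT19 5 or sgKRT19 6 it was at −1.0044 and −0.95, with limma adjusted p of 0.0546 and 0.0532.

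*Col24a1*, a fibrillar chain known from bone, had 47.4, 76.1, 80.4 and 171 in sgScramble and 35.8, 36.0 and 45.2 in sgKRT19 tumors. The groups did not overlap, but sgScramble 1 was close to sgKRT19 8. Its log2 fold change was −1.09 (limma, SE 0.368, adjusted p = 0.0430), and 7 of 15 other settings lost the call, among them the omission of any library but sgScramble 1, where values were −1.20 to −0.76 with limma adjusted p of 0.0608 to 0.114. *Col5a1*, whose product starts and limits the growth of type I fibrils, had 4902, 7061, 7032 and 11265 in sgScramble and 4667, 4756 and 3779 in sgKRT19 tumors. These groups did not overlap, and the log2 fold change was −0.73 (limma, SE 0.232, adjusted p = 0.0356), a call lost without sgScramble 2, sgScramble 3 or any of the sgKRT19 tumors (−0.78 to −0.62, limma adjusted p of 0.0504 to 0.115). The partner chains *Col5a2* and *Col5a3* had log2 fold changes of −0.31 and −0.27 and were not called.

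Type I and III chains, the bulk of fibers in most soft tissue, made 48.6% to 56.3% of the collagen reads of a library. *Col1a1* was at 28896, 40126, 43044 and 73468 in sgScramble and at 40152, 42146 and 35812 in sgKRT19 tumors. *Col1a2*, its partner in the type I trimer, was at 28257, 35549, 42368 and 67806 and at 41592, 39637 and 34432. *Col3a1*, which forms finer fibers, was at 35322, 41554, 47973 and 79379 and at 38927, 35363 and 36648. In each of the 3 genes the sgKRT19 tumors lay within the sgScramble range, and sgScramble 4 was the highest tumor. Log2 fold changes were −0.16 (95% interval −0.75 to 0.44) for *Col1a1*, −0.10 (−0.68 to 0.47) for *Col1a2* and −0.40 (−0.94 to 0.15) for *Col3a1*, with limma adjusted p of 0.671, 0.783 and 0.230. Taken gene by gene, the intervals leave room for falls of the size found in *Col5a1*, except that for *Col1a2*, whose lower end is −0.68. Within tumors, the ratio of *Col5a1* to *Col1a1* was 0.153 to 0.176 in sgScramble and 0.105 to 0.116 in sgKRT19.

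**Figure D2:**
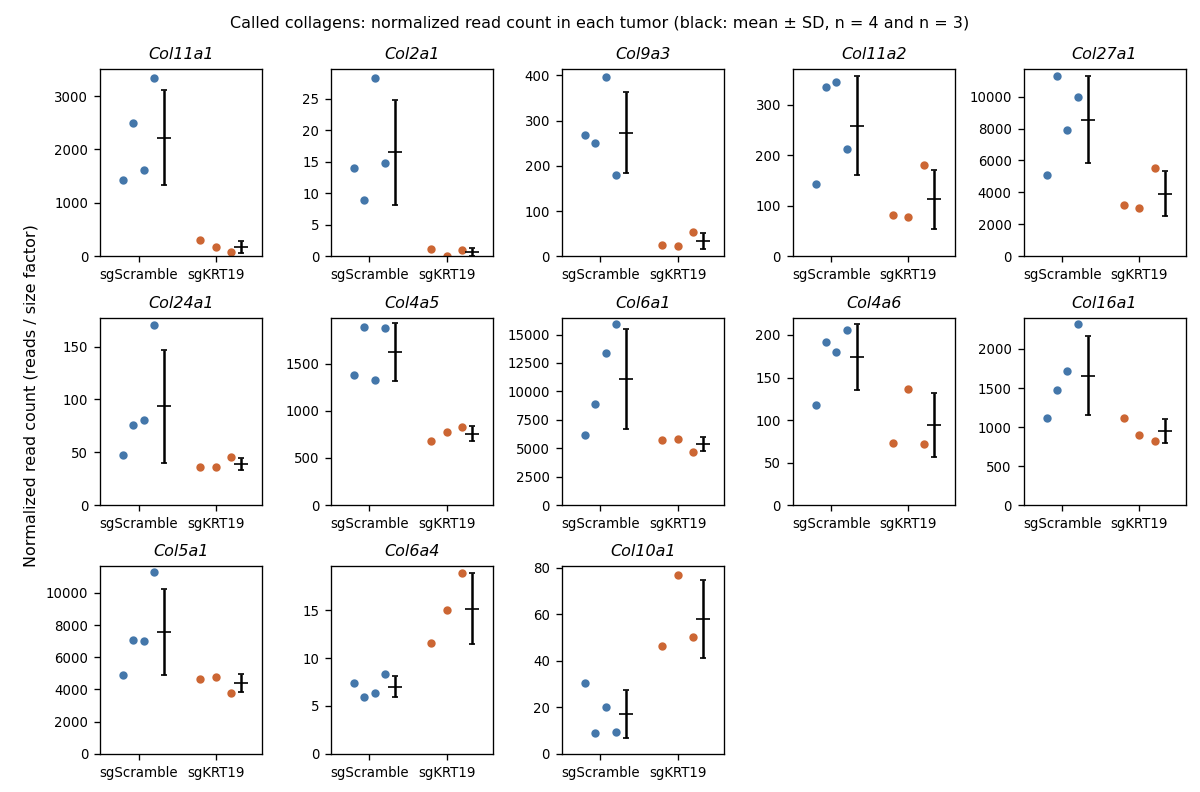
Normalized read count (reads divided by size factor, linear axis from 0) of the 13 called collagens in each tumor, with blue points for the 4 sgScramble and orange points for the 3 sgKRT19 tumors, and black bars for the mean and SD. The sgKRT19 tumors are lower in 11 panels and higher in those of *Col6a4* and *Col10a1*, and the groups share part of their range in *Col11a2*, *Col27a1*, *Col4a6* and *Col16a1*.

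Among the 9 fibril-associated collagens 5 were tested, 2 fell (40.0%, against 16.0% of all genes), and the median log2 fold change was −0.64. *Col9a3* encodes a chain of type IX collagen, which coats cartilage fibrils. It was at 268, 251, 395 and 179 in sgScramble (mean 273 ± 90.1) and at 24.3, 23.0 and 53.6 in sgKRT19 tumors (mean 33.6 ± 17.3). No tumor of one group came near the other, and the log2 fold change was −3.04 (limma, SE 0.336, adjusted p = 0.000198), or 8.21-fold lower, kept in all 15 other settings. Exons of *Tcfl5*, on the opposite strand, cover 6.07% of the *Col9a3* exon bases, and *Tcfl5* had a mean value of 21.5 against 171 for *Col9a3*. The other type IX chains were near the floor. *Col9a1* had 3, 3, 4 and 4 reads in sgScramble and 0, 0 and 0 in sgKRT19 tumors, and *Col9a2* had 1, 0, 5 and 5 reads and then 1, 1 and 1. Neither was tested.

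*Col16a1*, whose product links fibrils to neighboring matrix, fell by 0.77 on the log2 scale (adjusted p = 0.0219, limma), from 1115, 1477, 1723 and 2325 to 1116, 897 and 821. sgKRT19 5 and sgScramble 1 were nearly equal, so the groups just overlapped. The call was lost without sgKRT19 6 or sgKRT19 8 (−0.74 and −0.68, limma adjusted p of 0.0621 and 0.0769). *Col12a1*, the most abundant of the class, was at 5879, 7767, 7048 and 13024 in sgScramble and at 6929, 5299.9 and 4119 in sgKRT19 tumors. The groups overlapped, and its log2 fold change of −0.59 (95% interval −1.17 to −0.02) had a limma adjusted p of 0.0975. It passed with DESeq2 (−0.64, adjusted p = 0.0432), with library size only (−0.81, limma adjusted p = 0.0328) and without sgScramble 1 (−0.75, limma adjusted p = 0.0458). *Col20a1* and *Col14a1* had log2 fold changes of −0.64 and −0.12 and were not called, and neither *Col19a1* nor *Col22a1* exceeded 2 reads in a library. Without sgKRT19 8, *Col20a1* passed (−1.16, limma adjusted p = 0.0469).

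Cartilage marker genes were read beside the chains of collagens II, IX and XI, of which *Col2a1*, *Col9a3*, *Col11a1* and *Col11a2* fell and *Col9a1* and *Col9a2* were not tested. *Matn3*, a cartilage matrix adaptor, had a log2 fold change of −2.44 (adjusted p = 0.000537, limma) and *Hapln1*, which links hyaluronan to proteoglycan, −3.55 (adjusted p = 0.00315, limma), both from values of at most 63.1 in every tumor, and both passed the filter only through the sgScramble tumors, so their entry into the test already required a difference. *Acan*, the main cartilage proteoglycan, was at 571, 1067, 490.4 and 563 in sgScramble and at 430.04, 585 and 235 in sgKRT19 tumors and was not called (log2 fold change −0.72, adjusted p = 0.111, limma). Defining markers *Matn1* and *Cnmd* did not exceed 2 reads in a library, and *Snorc* was not analysed here. *Col10a1*, the collagen of the last stage of cartilage growth, moved the other way.

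Basement membrane collagens had a median near 0. All 9 were tested, with anchoring-fibril gene *Col7a1* and the vessel-wall collagens *Col15a1* and *Col18a1* placed in this class, and the median log2 fold change was −0.03. Limma called 2 lower (22.2%, against 16.0% of all genes) and none higher, and none had an unadjusted p under 0.05 in the upward direction, with edgeR and DESeq2 also calling none higher. *Col4a1* and *Col4a2*, which form the type IV network common to all basement membranes, were among the most abundant collagens. *Col4a1* was at 15797, 21674, 19782 and 25701 in sgScramble and at 18186, 20664 and 19292 in sgKRT19 tumors, and *Col4a2* at 7249.6, 10264, 10569 and 12589.9 and at 9736, 11252 and 10261. The sgKRT19 tumors lay within the sgScramble range for both genes. Their log2 fold changes were −0.08 (95% interval −0.44 to 0.29) and 0.06 (−0.32 to 0.44), with limma adjusted p of 0.737 and 0.808. *Col18a1*, the source of endostatin, had 0.14 (−0.14 to 0.42). *Col15a1* had −0.44 (−0.89 to 0.0054, adjusted p = 0.112, limma) and passed with library size only (−0.66, adjusted p = 0.0356) and without sgScramble 3 (−0.57, adjusted p = 0.0486).

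The 2 genes that fell were *Col4a5* and *Col4a6*, whose chains join a type IV network of specialized epithelia such as those of kidney and skin. *Col4a5* was at 1382, 1884, 1322 and 1881 in sgScramble (mean 1617 ± 307) and at 675, 773 and 824 in sgKRT19 tumors (mean 758 ± 75.8). The groups were well apart, and the log2 fold change was −1.08 (limma, SE 0.156, adjusted p = 0.000792), held in all 15 other settings. *Col4a6* was at 118, 192, 179.9 and 206 and at 72.8, 137 and 71.4. sgKRT19 6 lay above sgScramble 1, the log2 fold change was −0.92 (limma, SE 0.277, adjusted p = 0.0279), and the call was lost without sgScramble 2, sgScramble 4, sgKRT19 5 or sgKRT19 8 (−0.86 to −0.76, limma adjusted p of 0.0700 to 0.10). In contrast, *Col4a3* and *Col4a4*, the partners of *Col4a5* in the glomerulus, stayed at 13.7 to 27.7 and 7.43 to 16.4 in all tumors and were not called, with log2 fold changes of 0.03 and 0.06. Of *Col4a3* exon bases 5.65% also belong to the opposite-strand gene *C430014B12Rik*, so its low values are uncertain.

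Type IV genes lie in pairs that start back to back. *Col4a5* (chrX:141475385-141689234, plus strand) and *Col4a6* (chrX:141165403-141474076, minus strand) are 1308 bases apart in GRCm38, and both fell. *Col4a4* and *Col4a3* on chromosome 1 are 71 bases apart, *Col4a1* and *Col4a2* on chromosome 8 overlap by 22 bases, and neither gene of these pairs was called. The windows between *Col4a6* and *Col4a5* are shown because both neighbors moved. That of *Col4a5* is chrX:141475169-141475384 (plus strand, 216 bases, stopped at the gene start of the annotation), and that of *Col4a6* is chrX:141474077-141474326 (minus strand, 250 bases, printed 5′ to 3′ on its own strand). Capitals mark CCAAT in the first and CCGCCC, the reverse complement of GGGCGG, in the second.
Col4a5: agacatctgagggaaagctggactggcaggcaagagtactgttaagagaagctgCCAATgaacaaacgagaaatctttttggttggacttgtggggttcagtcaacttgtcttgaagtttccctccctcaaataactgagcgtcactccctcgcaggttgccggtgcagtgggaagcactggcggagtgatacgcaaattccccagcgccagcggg
Col4a6: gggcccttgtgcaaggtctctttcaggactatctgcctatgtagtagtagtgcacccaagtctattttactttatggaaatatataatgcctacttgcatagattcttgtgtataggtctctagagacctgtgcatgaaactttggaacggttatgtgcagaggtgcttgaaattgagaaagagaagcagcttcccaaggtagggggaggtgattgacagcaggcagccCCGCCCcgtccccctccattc

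Of 9 network collagens 8 were tested, 1 fell and 2 rose (37.5% called, near the 34.0% of all genes), and the median log2 fold change was −0.23. Type VI collagen, a beaded microfibril around cells, has *Col6a1*, *Col6a2* and *Col6a3* as its main chains. *Col6a1* was at 6206, 8872, 13385 and 15925 in sgScramble (mean 11097 ± 4375) and at 5691, 5784 and 4692 in sgKRT19 tumors (mean 5389 ± 605). The groups did not overlap but sgScramble 1 was close to the sgKRT19 tumors, and the log2 fold change was −0.96 (limma, SE 0.276, adjusted p = 0.0236), a call lost without sgKRT19 5 or sgKRT19 8 (−0.998 and −0.86, limma adjusted p of 0.0559 and 0.0791). *Col6a2* was at 4671, 6743, 11339.7 and 13208 and at 4841, 5137 and 4019, and its log2 difference of −0.84 missed the threshold (adjusted p = 0.0582, limma). It passed with edgeR (−0.96, adjusted p = 0.0359) and DESeq2 (−0.96, adjusted p = 0.00550) on the recovered reads. *Col6a2* also passed with library size only (−1.05, limma adjusted p = 0.0281) and without sgScramble 1 (−1.11, limma adjusted p = 0.00696). *Col6a3* was at 4383, 6672, 7604 and 12288 and at 5165, 6638 and 4126, with sgKRT19 tumors inside the sgScramble range apart from sgKRT19 8. Its log2 fold change was −0.47 (95% interval −1.13 to 0.18, limma adjusted p = 0.231). Without sgScramble 1 it passed (−0.71, limma adjusted p = 0.0462). In all 3 chains sgScramble 3 and 4 were the highest tumors.

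*Col10a1*, made by hypertrophic chondrocytes and also known from carcinoma stroma, had the largest rise of the family at a low level. It was at 30.7, 8.89, 20.1 and 9.27 in sgScramble (mean 17.2 ± 10.3) and at 46.2, 77.0 and 50.4 in sgKRT19 tumors (mean 57.9 ± 16.7). All 3 sgKRT19 tumors lay above all sgScramble tumors, and the log2 fold change was 1.83 (limma, SE 0.430, adjusted p = 0.00992), or 3.56-fold higher. The call held in the 14 other settings that tested it. *Col10a1* (chr10:34389981-34397085, plus strand) shares 18 bases, 0.58% of its exons, with *Nt5dc1* on the opposite strand, a gene with a mean value of 318. Its promoter, chr10:34389731-34389980 (plus strand), is shown as that of the member that rose most, with the only match, TATAAA, in capitals.
Col10a1: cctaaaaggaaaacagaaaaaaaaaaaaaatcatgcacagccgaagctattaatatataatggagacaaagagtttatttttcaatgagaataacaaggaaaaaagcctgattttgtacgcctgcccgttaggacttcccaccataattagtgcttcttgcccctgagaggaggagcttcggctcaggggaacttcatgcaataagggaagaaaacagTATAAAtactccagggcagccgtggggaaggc

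*Col6a4*, a minor type VI chain, was the other collagen to rise, on few reads. It was at 7.43, 5.93, 6.39 and 8.35 in sgScramble and at 11.6, 15.0 and 18.9 in sgKRT19 tumors, which did not overlap. The log2 fold change was 0.99 (limma, SE 0.330, adjusted p = 0.0412), and 6 of the 10 other settings that tested it lost the call, DESeq2, no filter and the omission of each sgScramble library, with adjusted p of 0.0517 to 0.0974 and values of 0.93 to 1.10. Its neighbor *Col6a5* on chromosome 9 had a log2 fold change of −1.22 with a wide 95% interval of −2.72 to 0.27, and 59.4 in sgScramble 4 alone against 4.62 to 24.7 elsewhere. *Col6a6*, next in line, had 3, 0, 3 and 1 reads in sgScramble and 3, 9 and 10 reads in sgKRT19 tumors and was not tested. *Col8a1* and *Col8a2*, which form lattices in vessel walls and the cornea, had log2 fold changes of 0.17 and 0.0032 and were not called. Without sgKRT19 8, *Col8a1* passed as higher (0.43, limma adjusted p = 0.0425).

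Transmembrane and remaining collagens showed no call in the main test. Of 4 transmembrane genes 2 were tested, and none had an unadjusted p under 0.05 in limma, edgeR or DESeq2. *Col23a1*, the most abundant, was at 168, 218, 458 and 506 in sgScramble and at 279, 297 and 167 in sgKRT19 tumors, which overlapped. Its log2 fold change was −0.34 (95% interval −1.18 to 0.50), and that of *Col13a1* was 0.06 (−0.56 to 0.69). *Col17a1*, the hemidesmosome collagen of epithelia, had 12, 10, 10 and 10 reads and then 5, 0 and 7, below the filter, and *Col25a1* did not exceed 4 reads. *Col28a1*, a chain with von Willebrand factor domains, was at 43.7, 106, 73.1 and 74.2 and at 43.9, 44.0 and 62.0, and its log2 fold change was −0.51 (−1.17 to 0.15). It passed without sgScramble 1 (−0.74, limma adjusted p = 0.0496). *Col26a1* did not exceed 2 reads.

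**Figure D3:**
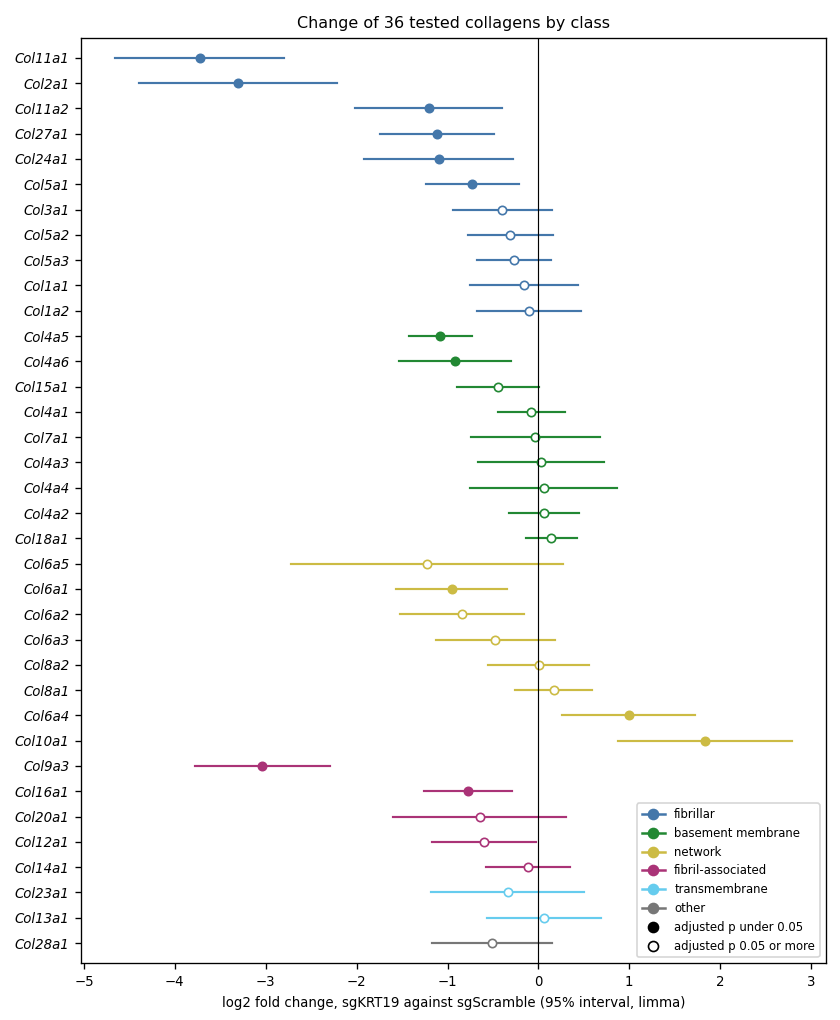
Log2 fold change of sgKRT19 against sgScramble tumors for the 36 tested collagens, sorted within class, with 95% intervals from limma. Filled points mark an adjusted p under 0.05. All 11 fibrillar estimates lie left of 0, basement membrane intervals all include 0 apart from those of *Col4a5* and *Col4a6*, and *Col10a1* lies furthest right at 1.83.

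Levels were compared between genes as normalized read count per kb of spliced transcript. *Col3a1*, *Col1a2* and *Col1a1* led with means over the 7 tumors of 8092, 7737 and 7315 per kb, and their ranges overlapped. *Col4a1* and *Col18a1* followed at 3047 and 2755 per kb, then *Col6a1*, *Col6a2*, *Col4a2* and *Col5a2* at 2110 down to 1528 per kb. The order differed between the groups, since *Col6a1* (2707 per kb) was above *Col18a1* (2637) in sgScramble, whereas *Col4a2* (1615) was above *Col6a1* (1314) and *Col1a2* (7209) above *Col3a1* (6646) in sgKRT19 tumors. Among the 36 tested collagens, 33 of the 35 neighbors in this order had overlapping ranges. The gaps lay between *Col1a1* and *Col4a1* and between *Col24a1* and *Col4a3*. Further down the order, *Col2a1* and *Col6a5* reached 5.55 and 6.39 per kb, above the lowest *Col24a1* value of 5.02 per kb. *Col27a1*, with 863 per kb, and *Col5a1*, with 739 per kb, came next, so called collagens also lay among the more abundant ones, whereas *Col11a1* was at 290 per kb in sgScramble and 23.8 per kb in sgKRT19 tumors.

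**Figure D4:**
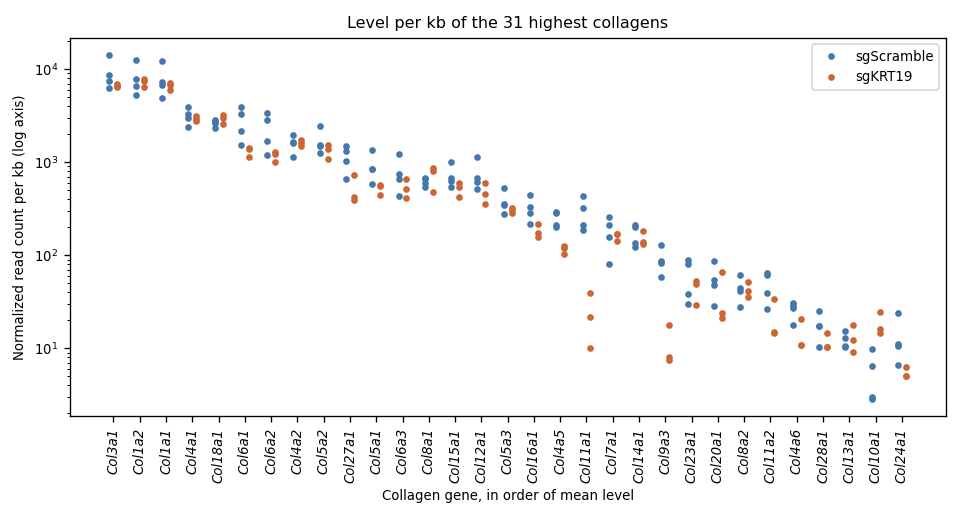
Normalized read count per kb of spliced transcript, on a log axis, for the 31 most abundant collagens in order of mean level, with a blue point for each sgScramble and an orange point for each sgKRT19 tumor. *Col3a1*, *Col1a2* and *Col1a1* stand above the rest. The 2 groups do not overlap in *Col6a1*, *Col5a1*, *Col4a5*, *Col11a1*, *Col9a3* and *Col24a1*, where sgKRT19 is lower, and in *Col10a1*, where it is higher.

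Ratios of chains within a library, which do not depend on the size factor, showed whether pairs moved unequally. For 7 pairs the log2 ratios were compared by a two-sided exact permutation test over 35 splits of the tumors, whose smallest possible p is 0.0571, so no pair could pass 0.05. Type V to type I (*Col5a1* to *Col1a1*) was 0.153 to 0.176 in sgScramble and 0.105 to 0.116 in sgKRT19 tumors, a log2 difference of −0.57. That of *Col4a5* to *Col4a1* was 0.0668 to 0.0875 and 0.0371 to 0.0427, a difference of −1.0. *Col3a1* to *Col1a1* was 1.04 to 1.22 and 0.839 to 1.02, a difference of −0.24, and *Col6a3* to *Col6a1* was 0.568 to 0.772 and 0.879 to 1.15, a difference of 0.48. In these 4 pairs all sgKRT19 tumors lay on one side of all sgScramble tumors, each with the smallest p the exact permutation test allows, 0.0571 (0.1 adjusted over the 7 pairs). Such separation was common among single genes, with 19.3% of all genes tested wholly below and 21.7% wholly above. No share over other pairs of genes was computed. Without sgScramble 4 the 4 differences were −0.61, −1.03, −0.25 and 0.53 in the order given here. The partner chains *Col1a1* to *Col1a2* and *Col4a1* to *Col4a2* overlapped between the groups, with log2 differences of −0.05 (exact permutation p = 0.4) and −0.14 (exact permutation p = 0.114). *Col4a1* to *Col1a1*, basement membrane against fiber, differed by 0.08 (exact permutation p = 0.914).

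**Figure D5:**
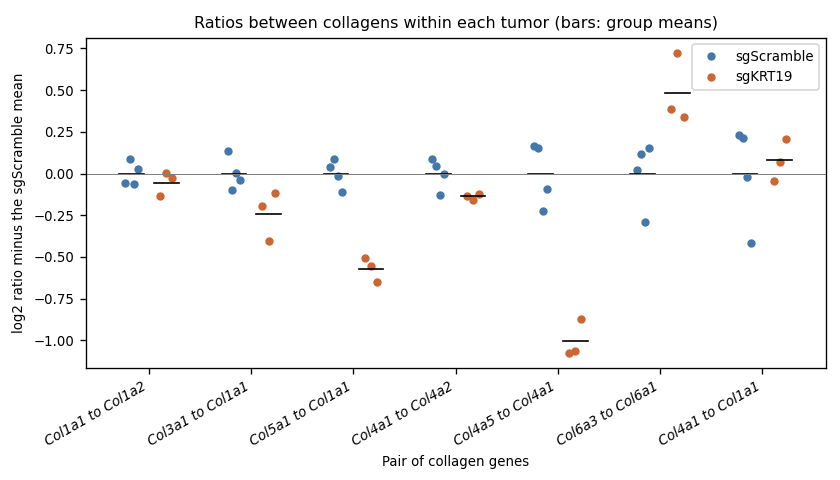
Log2 ratio of 2 collagens within each tumor, minus the sgScramble mean, for 7 pairs, with blue points for the 4 sgScramble and orange points for the 3 sgKRT19 tumors and short bars for group means. The orange points lie below all blue points in *Col3a1* to *Col1a1*, *Col5a1* to *Col1a1* and *Col4a5* to *Col4a1*, and above them in *Col6a3* to *Col6a1*.

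Promoters were compared by the letters they hold. Windows of 250 bases before the RefSeq start matched 35 of the 44 collagens, in 38 windows, and were searched on both strands for 4 motifs. GGGCGG, the GC box, was in 57.9% of collagen windows and 32.7% of all 32851 windows. CCAAT was in 34.2% and 33.9%, TATAAA, the TATA box, in 13.2% and 12.4%, and AACAAT, a core bound by SOX factors, in 2.63% and 9.42%. The motifs do not overlap each other in the windows printed above. The whole *Col4a5* window also holds 1 GGGCGG, in the stretch past the gene start that is not printed.

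Genes that fold, modify, cut and bind collagen were read as companion lists. Of 21 genes for chain folding and modification, all tested, 9 fell and 2 rose (52.4% called, against 34.0% of all genes). *P3h4*, a partner in lysine hydroxylation of collagen, fell by 1.61 on the log2 scale (adjusted p = 0.000153, limma), from 2301 to 2659 in sgScramble to 669 to 1103 in sgKRT19 tumors. *Creb3l1*, a transcription factor that drives collagen genes, and *Fkbp10*, a collagen chaperone, had log2 fold changes of −1.30 and −1.17 (adjusted p = 0.000197 and 0.000283, limma), and *P4ha3*, a proline hydroxylase subunit, had −1.08. The groups did not overlap in any of these 4, which were named as the called genes with the largest change. Over all genes 19.3% had every sgKRT19 library below every sgScramble library. *Crtap* and *Ppib*, members of the prolyl 3-hydroxylase complex, rose by 0.56 and 0.52.

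Among 11 tested genes of propeptide removal and cross-linking 5 fell and 1 rose (54.5% called, against 34.0% of all genes). *Tll1*, a procollagen protease, *Pcolce*, which enhances procollagen cutting, and *Loxl2*, a cross-linking oxidase, had log2 fold changes of −1.22, −1.03 and −0.64, while *Pcolce2*, a relative of *Pcolce*, rose by 0.83. Of 18 tested collagen-binding matrix proteins 4 fell and 1 rose (27.8% called, under the 34.0% of all genes). *Comp*, a cartilage and tendon protein that binds collagens II and IX, fell by 2.56 (adjusted p = 0.00171, limma), from 78.1 to 207 in sgScramble to 10.4 to 36.8 in sgKRT19 tumors. *Matn2*, *Fn1* (fibronectin) and *Thbs1* (thrombospondin) had −1.31, −1.28 and −0.70, and *Tgfbi*, an adhesion protein, rose by 0.56. Of 11 tested receptors and uptake genes 3 fell and 1 rose, and the 36.4% called was near the 34.0% of all genes. *Itga10*, the integrin subunit of chondrocytes, had −0.89, *Adgrg1*, a receptor for type III collagen, −0.61, and *Mrc1*, a macrophage uptake receptor, −0.50, while *Lair1*, an inhibitory collagen receptor of leukocytes, rose by 0.48.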

How the data were processed

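RNA was sequenced from 4 sgScramble and 3 sgKRT19 tumors, with a stranded total RNA kit per the study and polyA RNA per the labels. The authors deposited 1 table of 38026 genes with 1 column per library. Its numbers are a signal that the authors made from the read total of each gene by dividing it by a library size factor. The build is mm10 per the labels, and the aligner, counter and annotation are not given in the sources used here. Whole reads were recovered, since dividing by the worth of 1 read gave whole numbers, within 0.05, for 100% of the values of each library. Positions, exons and spliced lengths (of the transcript with the longest coding sequence) came from GENCODE M21 on GRCm38, where all 44 collagens and 37167 identifiers matched with version, and promoters came from RefSeq (GRCm38.p6). Whether counting used strand is not given, so genes that share exon bases are uncertain.

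The main test was limma 3.58.1 (R 4.3.3), with lmFit and eBayes with a trend on log2(value + 1), group as the only term, genes with at least 10 in at least 3 libraries, and Benjamini-Hochberg adjustment over 21322 genes with a threshold of 0.05. The pseudocount understates changes of low genes. Count tests on the recovered reads were run with edgeR 4.0.16 and called 7188 genes, and with DESeq2 1.42.0. Scripts were tested on simulated data. A floor of 3 reads, a value of 2.74 to 3.47, was taken as the limit of detection and covers counting error only, as the reads carry no molecular identifiers. The labels do not say that each tumor came from its own mouse and give no batch or date, so p-values measure the spread between these samples.

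Classes, companion lists and markers were written from general knowledge, and members and lists were chosen with earlier results of these data known. Values in every library are given for called collagens whose log2 fold change was 1 or more in either direction, the chains in the 7 ratios and the most abundant collagen of each class, and of each companion list up to 4 called genes with the largest change, others having been added after their values were seen. The marker *Tcf21* was not analysed here.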

Additional observations from a re-analysis of the deposited data

How the results depend on the processing

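Of 13 called collagens, *Col10a1*, *Col11a1*, *Col2a1*, *Col4a5* and *Col9a3* kept their call in every setting that tested them (pseudocounts of 0.5 and 5, no filter, a filter of 50, library size only, TMM factors, edgeR, DESeq2 and leaving out each library). Of these 15 settings 14 tested *Col10a1* and 11 tested *Col2a1*. *Col2a1* failed the filter of 50 and, without sgScramble 1, 3 or 4, that of 10, so its call could not be lost there. Higher collagens numbered 0 with the filter of 50, which left neither *Col10a1* nor *Col6a4* testable at its level, 1 with library size only and 1 with DESeq2. Leaving out 1 library gave 5 to 14 lower collagens (5 without sgKRT19 5, 6 without sgKRT19 6, 7 without sgScramble 2 or sgKRT19 8, 14 without sgScramble 1), 1 to 2 higher and a median log2 fold change of −0.55 to −0.14. Over all genes these omissions gave 2232 to 3611 lower and 2481 to 4103 higher. Library size alone moved the median of all genes to −0.21 and the share of calls that were higher from 52.8% to 27.5%, with 14 collagens lower, 1 higher and a collagen median of −0.67. Log2 fold changes that turned sign, none of them called, were then −0.14 for *Col4a4*, −0.17 for *Col4a3*, −0.21 for *Col8a2*, −0.16 for *Col4a2*, −0.15 for *Col13a1*, −0.076 for *Col18a1* and −0.049 for *Col8a1*, with *Col8a2* at −0.044 in edgeR and −0.042 in DESeq2. Leaving out 1 library turned others, with ranges of −0.14 to 0.26 for *Col4a4*, −0.18 to 0.30 for *Col4a3*, −0.19 to 0.18 for *Col8a2*, −0.28 to 0.14 for *Col1a2*, −0.36 to 0.093 for *Col1a1*, −0.20 to 0.033 for *Col4a1*, −0.094 to 0.17 for *Col4a2*, −0.37 to 0.19 for *Col7a1*, −0.18 to 0.29 for *Col13a1*, −0.26 to 0.0057 for *Col14a1* and −0.061 to 0.15 for the ratio of *Col4a1* to *Col1a1*. The cause of these turns was not tested. No paired analysis was possible because the groups share no replicate numbers. Depth limits the 8 untested collagens and *Col2a1*, *Col6a4* and *Col10a1*, which rest on few reads. Of 43 results, 0 had a sgScramble tumor whose gap to its nearest neighbor, as a share of the range of the group, passed Dixon's 95% critical value for 4 samples, although sgScramble 4 was often the highest. With 4 values only a very large gap can pass. Taken result by result, the rule cannot judge a library that is moderately high in many collagens, so no conclusion about sgScramble 4 is drawn from it.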
